A study of Mus musculus with 4 samples.

Results

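The matrix metalloproteinases (MMP), their tissue inhibitors (TIMP) and the ADAMTS proteases were described in cells sorted as vessel progenitors from C57BL/6 mice. The members were all genes whose symbol is Mmp, Timp or Adamts followed directly by a number, with the ADAMTS-like (Adamtsl) genes left out. This gave 45 genes of 31017 symbols, namely 22 MMP, 4 TIMP and 19 ADAMTS genes, and all 45 are protein coding in GENCODE vM21. Cells from fat and from lung were sorted into 2 populations, P1 and P2, for droplet-based single-cell RNA sequencing, with 1 library for each tissue and population. All sorted cells were negative for CD45 (leukocytes) and Ter119 (erythroid cells) and positive for Tie2, the angiopoietin receptor. P1 cells also carried the endothelial protein CD31 but not PDGFRa, with high CD105 and low Sca1. P2 cells were the reverse, with PDGFRa and without CD31, with low CD105 and high Sca1. Age, sex and the number of animals behind each library are not given in the sources used here.

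MMPs are zinc proteases that cut collagens, gelatin, proteoglycans and other matrix proteins, and most are made as inactive proenzymes. TIMPs bind active MMPs and block them, and TIMP3 also blocks several ADAMTS proteases. ADAMTS proteases are secreted enzymes with thrombospondin repeats, and different members cut large proteoglycans, trim procollagen or act on fibrillin microfibrils and von Willebrand factor. In vessels these enzymes are known for remodelling the basement membrane and the surrounding stroma during sprouting.

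The 2 libraries of P1 are named here by their labels only, as P1 labelled fat and P1 labelled lung, because tissue markers went against those labels. The fat vessel gene Fabp4, whose product binds fatty acids, reached 94.2 CPM in P1 labelled fat but 12379 in P1 labelled lung. Sftpc, a surfactant gene of lung epithelium, reached 738 and 0 CPM. CPM are counts of unique molecular identifiers (UMIs, 1 for each captured transcript) per 1000000 UMIs of a library. They are given with exact Poisson 95% intervals in parentheses, which cover counting error only. The kit reads transcripts from their 3' ends and counts each molecule once, so CPM was not scaled by gene length. The kept cells numbered 1948 (P1 labelled fat), 7898 (fat P2), 652 (P1 labelled lung) and 1436 (lung P2), with 6510236, 43599072, 1118642 and 3880015 UMIs and medians of 2964, 5151.5, 1561 and 2150 UMIs per cell. There were no replicates, so no test could be run and each difference describes single libraries. The 12 blood endothelial markers summed to 17538, 239, 11478 and 797 CPM in that order, and the 12 fibroblast markers to 61.4, 46204, 1141 and 13765 CPM. Barcodes of P1 labelled lung varied little beyond random draws from its summed counts, with a median variance of 1.19 times the binomial value over 200 abundant genes, against 2.56 to 3.83 elsewhere. That library was not clustered, and its values are sums over barcodes. No pair of libraries shared more than 1 cell barcode.

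Summed over members, the level was 1190.1 CPM in P1 labelled fat, 8342 in fat P2, 1907 in P1 labelled lung and 5915 in lung P2. At least 1 UMI was found for 28, 42, 26 and 34 of the 45 members in that order, and 7, 14, 7 and 17 reached 30 CPM or more. The interstitial collagenases Mmp1b and Mmp13 and the enamel protease Mmp20 had 0 UMIs in all 4 libraries. Mmp7, Mmp8, Mmp10, Mmp12, Mmp21, Mmp24 and Mmp25 had at most 10 UMIs in any library. A count of 0 allows up to 3 UMIs, which is 0.461, 0.0688, 2.68 and 0.773 CPM in the same order. In every library the TIMPs together held more UMIs than the MMPs together, at 764, 3901, 1228 and 3221 CPM against 194, 2661, 184 and 1087 CPM. The ADAMTS genes summed to 232, 1780.5, 494 and 1607 CPM.

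**Figure D1:**
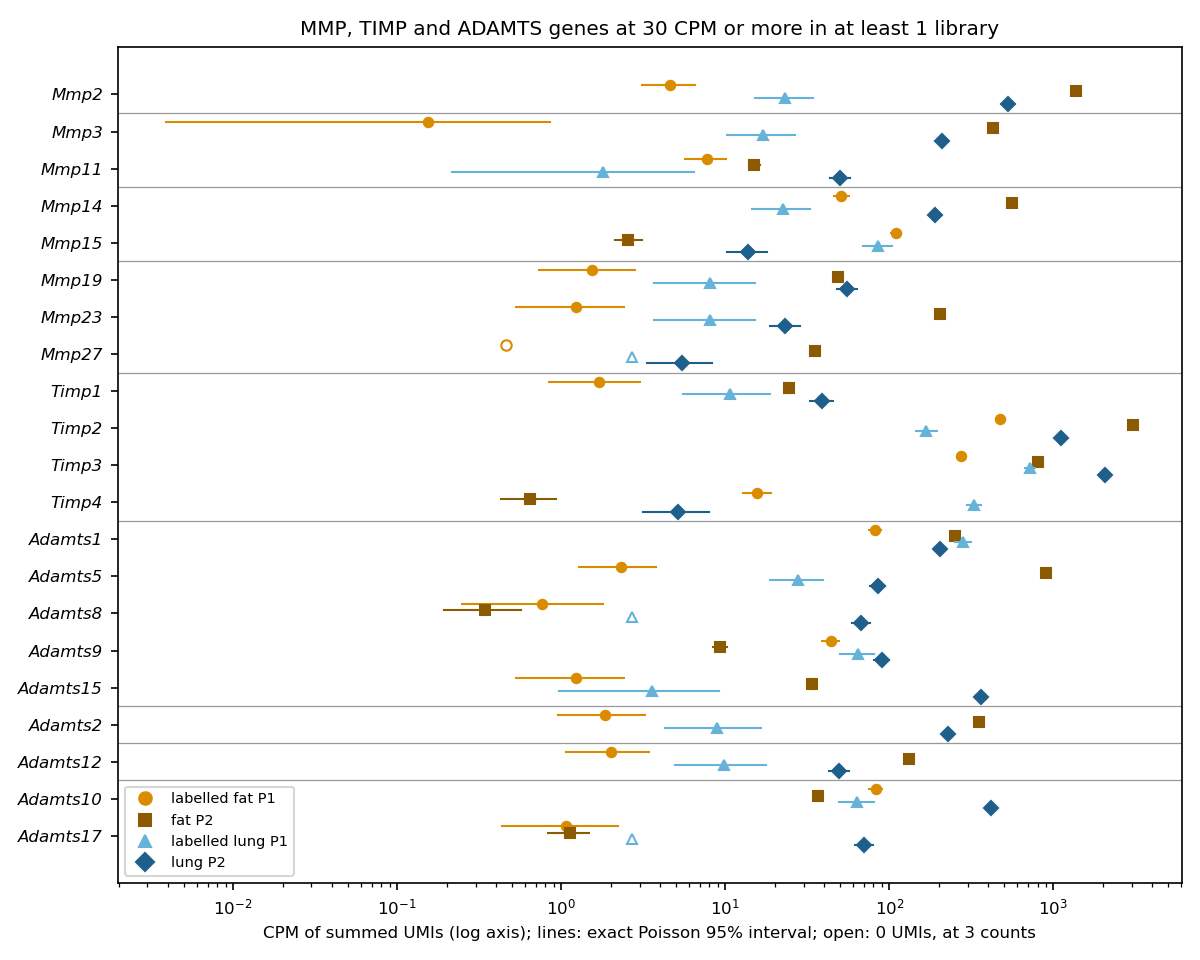
CPM of summed UMIs on a log axis for the 21 members that reached 30 CPM in at least 1 library, grouped by role (horizontal lines). Each symbol is 1 library, each bar its exact Poisson 95% interval, and an open symbol a count of 0 drawn at 3 UMIs. Most members sit to the right in P2, whereas Mmp15 sits to the right in both P1 libraries and Timp4 in P1 labelled lung.

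A member was counted as higher in 1 library when the ratio of CPM was at least 4 after 10 CPM were added to both, with at least 30 CPM in 1 of them, which is here called measured. Log2 ratios below include the added 10 CPM, and folds do not. Between the libraries labelled fat, 16 members were measured. Of these 10 were at least 4-fold higher in P2, against 8.34% of all measured genes, and 1 was at least 4-fold higher in P1, against 9.76% of all measured genes. Higher in P2 were Mmp2, Mmp3, Mmp14, Mmp19, Mmp23, Mmp27, Timp2, Adamts2, Adamts5 and Adamts12, and higher in P1 was Mmp15. Between the libraries labelled lung, 19 members were measured. Of these 10 were at least 4-fold higher in P2, against 9.06% of all measured genes, and 2 in P1, against 6.41%. Higher in P2 were Mmp2, Mmp3, Mmp11, Mmp14, Timp2, Adamts2, Adamts8, Adamts10, Adamts15 and Adamts17, and higher in P1 were Mmp15 and Timp4. The median log2 ratio of P1 over P2 of the measured members was -2.51 in fat (-2.95 with members at 0 set at their bound) and -2.35 in lung. Over all measured genes it was 0.37 and -0.15. Some members passed the minimum only through the library where they were high, so these medians describe the list and support nothing further.

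Between fat P2 and lung P2, 19 members were measured. Of these 2 were at least 4-fold higher in fat, Adamts5 and Mmp23, against 3.65% of all measured genes. A further 5 were at least 4-fold higher in lung, Adamts8, Adamts9, Adamts10, Adamts15 and Adamts17, against 6.37% of all measured genes. Of all genes past the limit, 36.5% were higher in fat, and 51.0% with TMM scaling, which left the 7 members as they were. Each of the 7 was also past the limit in fibroblast-like cells alone. The median log2 ratio of fat over lung was 0.30 for the measured members and -0.19 for all measured genes. Between the P1 libraries, 8 members were measured. None was at least 4-fold higher in P1 labelled fat, against 4.45% of all measured genes, and Timp4 alone was higher in P1 labelled lung, against 4.27% of all measured genes. With the P1 libraries exchanged between tissues, P1 had 2 members at least 4-fold higher in fat (Mmp15 and Timp4), against 7.9% of all measured genes, and 1 in lung (Mmp15), against 6.53%. P2 then had 9 in fat, against 7.38% of all measured genes, which left out Mmp19. In lung P2 then had 12, against 8.28%, which lost Mmp11, Mmp14 and Timp2 and gained Mmp19, Timp1, Timp3, Adamts5 and Adamts12.

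**Figure D2:**
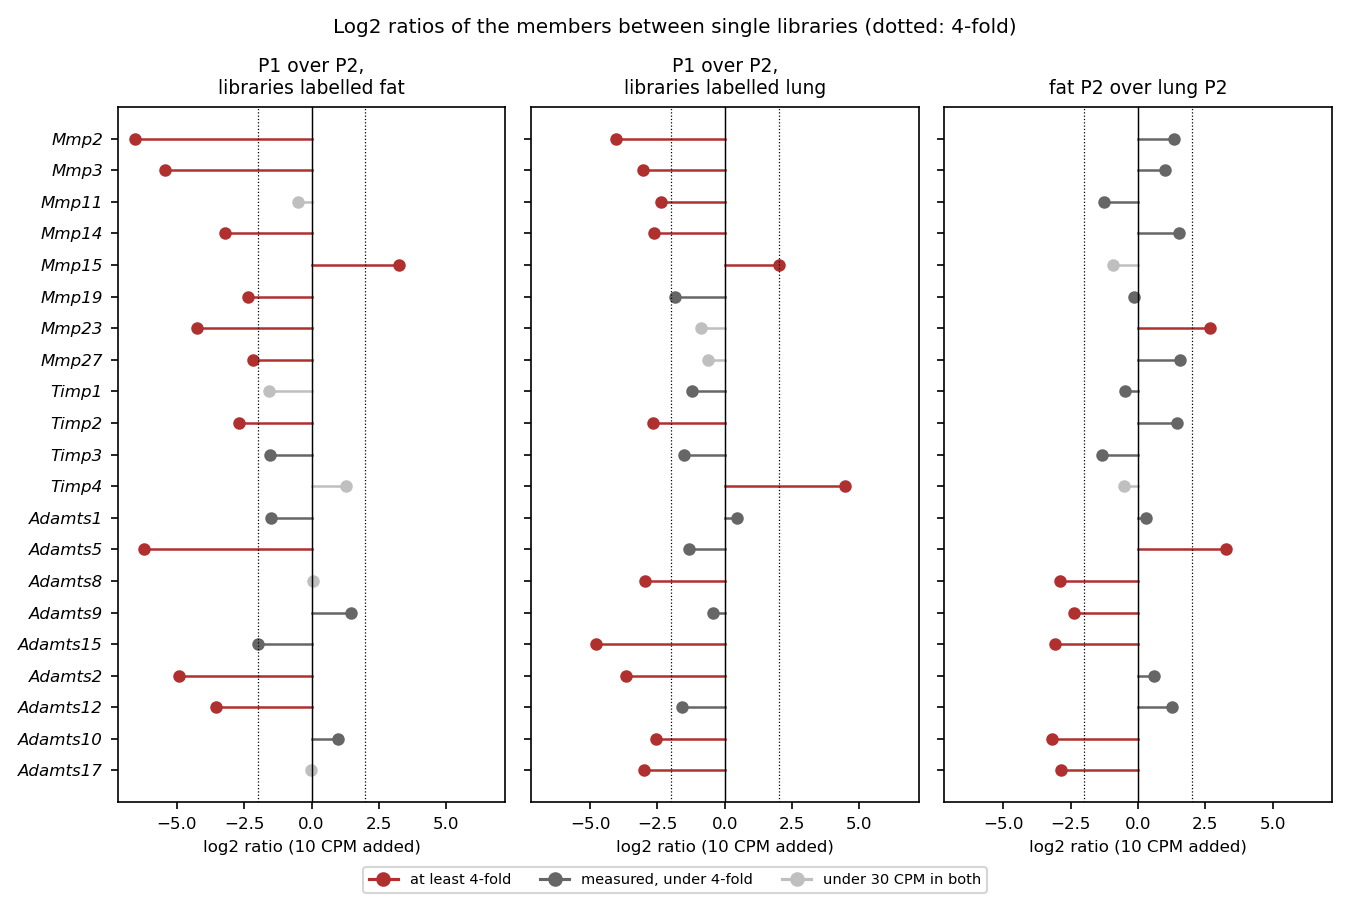
Log2 ratios, with 10 CPM added, of the same 21 members in P1 over P2 for the libraries labelled fat and labelled lung and in fat P2 over lung P2. Dotted lines mark 4-fold, red points lie past it, dark grey points do not, and light grey points are under 30 CPM in both libraries. Mmp2, Mmp3, Mmp14, Timp2 and Adamts2 lie past 4-fold on the P2 side in both label pairs, though Mmp14 and Timp2 were not past it in lung with the P1 libraries exchanged, and the 5 members past 4-fold on the lung side are ADAMTS genes.

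Mmp3 encodes stromelysin 1, which cuts proteoglycans and activates other proenzymes of the family. Mmp3 (ENSMUSG00000043613, chromosome 9, 7445822 to 7455975), on GRCm38 as all coordinates here, lies in a run of 9 members within 427.1 kb of chromosome 9 (7272514 to 7699585) that holds no other protein-coding gene in GENCODE vM21. In chromosome order these are Mmp13, Mmp12, Mmp1b, Mmp3, Mmp10, Mmp8, Mmp27, Mmp20 and Mmp7, and of these Mmp3 and Mmp27 alone exceeded 4 UMIs in lung P2 or 10 in fat P2. The upstream bases of Mmp3 and of 3 neighbours are shown because genes with like upstream letters differed in level. The sequences are the 250 bases before the RefSeq start on GRCm38.p6, 5′ to 3′ on the plus strand. Capitals mark the letters of an AP-1 site, TGAGTCA or TGACTCA on the other strand, and of a TATA box, TATAAA.
Mmp3, chr9:7445572-7445821: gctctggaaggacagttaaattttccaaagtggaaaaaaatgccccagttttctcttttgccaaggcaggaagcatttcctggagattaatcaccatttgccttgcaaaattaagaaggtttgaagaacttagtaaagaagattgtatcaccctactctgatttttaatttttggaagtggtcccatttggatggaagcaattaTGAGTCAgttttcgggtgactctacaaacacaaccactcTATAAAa
Mmp10, chr9:7502092-7502341: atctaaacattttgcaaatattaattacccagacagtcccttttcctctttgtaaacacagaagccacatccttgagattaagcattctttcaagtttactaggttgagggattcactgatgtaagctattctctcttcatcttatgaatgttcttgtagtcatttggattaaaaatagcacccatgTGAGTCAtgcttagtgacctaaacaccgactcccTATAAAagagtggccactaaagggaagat
Mmp13, chr9:7272264-7272513: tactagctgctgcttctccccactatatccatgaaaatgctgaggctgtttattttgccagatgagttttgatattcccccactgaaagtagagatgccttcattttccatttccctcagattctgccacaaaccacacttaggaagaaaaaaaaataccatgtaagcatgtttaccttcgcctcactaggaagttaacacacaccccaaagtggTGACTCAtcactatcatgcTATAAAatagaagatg
Mmp27, chr9:7571146-7571395: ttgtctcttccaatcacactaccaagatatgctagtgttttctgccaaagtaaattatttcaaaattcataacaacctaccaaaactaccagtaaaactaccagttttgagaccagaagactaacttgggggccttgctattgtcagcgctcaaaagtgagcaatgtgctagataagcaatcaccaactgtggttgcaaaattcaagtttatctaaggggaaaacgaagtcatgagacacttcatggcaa

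The AP-1 letters began 46 bases before the start in Mmp3, 63 in Mmp10 and 35 in Mmp13, each with TATA letters nearer the start. In Mmp27 neither motif was found in this window. Of the 45 members 31 had a RefSeq promoter entry, and 6 of these 31 (19.4%) held the AP-1 letters on either strand in at least 1 upstream window, all 6 in the chromosome 9 run. Over all 32851 promoter entries the AP-1 letters were found in 4.46% and TATAAA or its complement in 12.4%. A match of letters is a description of the sequence only. In fat P2 Mmp3 had 426 (419 to 432) CPM and in lung P2 210.1 (196 to 225), whereas Mmp10 had 2 UMIs in fat P2 and none elsewhere and Mmp13 had none. AP-1 letters near the start were thus present at genes of both kinds.

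In P1, Mmp3 was at 0.154 CPM in the library labelled fat (1 UMI) and at 16.98 (10.2 to 26.5) in that labelled lung. For the libraries labelled lung, P2 was 12.4-fold (7.87 to 20.6) above P1. For those labelled fat the fold rests on that 1 UMI, with a counting interval from 497 to 109429. Mmp3 had the most uneven counts across cells of any member in fat P2, with a variance of 21.1 times the binomial value. It was seen in 17.2% of fat P2 cells thinned to 1000 UMIs (33.1% unthinned), and the 10% of cells with most Mmp3 held 77.4% of its UMIs, with up to 109 in a cell. The same share was 28.5% for Mmp2 and 27.6% for Timp2. In lung P2 Mmp3 was seen in 7.03% of cells thinned to 1000 UMIs (11.4% unthinned). The top 10% of cells there held 97.7% of Mmp3 UMIs. With so few cells holding any, that share had to be high and says little about unevenness among them. Mmp11, stromelysin 3, was at 7.68 CPM (5.70 to 10.1) in P1 labelled fat, 15.02 (13.9 to 16.2) in fat P2, 1.79 (0.217 to 6.46) in P1 labelled lung and 50.3 (43.5 to 57.8) in lung P2, and the interval of lung P2 lay above those of the other 3 libraries.

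Mmp2 encodes gelatinase A, which degrades denatured collagen and type IV collagen. Mmp2 (ENSMUSG00000031740, chromosome 8, 92827291 to 92853420) had 4.61 CPM (3.11 to 6.58) in P1 labelled fat, 1364 (1353 to 1375) in fat P2, 23.2 (15.2 to 34.1) in P1 labelled lung and 531 (508 to 554) in lung P2. Both P2 libraries were far above both P1 libraries, 296-fold (207 to 439) for the libraries labelled fat and 22.8-fold (15.5 to 35.1) for those labelled lung. After each cell was thinned to 1000 UMIs, Mmp2 was seen in 69.2% of fat P2 cells and 28.7% of lung P2 cells, and unthinned in 95.2% and 46.1%. Cells of the same libraries that should lack Mmp2 also held it, unthinned in 11 of 27 cells (40.7%) of a B-like cluster of fat P2 and in 7 of 26 (26.9%) of an endothelial-like cluster of lung P2, whose median depths are given with the clusters. Gelatinase B, Mmp9, had no UMI in P1 labelled fat and lung P2 and 6 in fat P2. P1 labelled lung held 14 UMIs of Mmp9, or 12.5 (6.84 to 21.0) CPM. In that library the 5 neutrophil markers summed to 1.79 CPM, with S100a9, Retnlg, Csf3r and Ly6g at 0, and the 8 macrophage markers to 106 CPM, with Adgre1, Csf1r and C1qb at 0. Their part in the Mmp9 count was not tested.

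The membrane-type MMPs are anchored to the cell surface. Mmp14 encodes MT1-MMP, which cuts fibrillar collagen and, with TIMP2 as a bridge, activates proMMP2. Mmp14 (ENSMUSG00000000957, chromosome 14, 54431612 to 54445364) had 51.0 CPM (45.7 to 56.8) in P1 labelled fat, 557 (549.8 to 564) in fat P2, 22.3 (14.5 to 32.99) in P1 labelled lung and 189 (175 to 203) in lung P2. It was 10.9-fold (9.796 to 12.2) higher in P2 for the libraries labelled fat and 8.45-fold (5.68 to 13.1) for those labelled lung. With the P1 libraries exchanged Mmp14 was not past the limit in lung. Fat P2 exceeded lung P2 by 2.95-fold (2.74 to 3.18), under the 4-fold limit. Mmp15, which encodes MT2-MMP, went the other way. Mmp15 (ENSMUSG00000031790, chromosome 8, 95352268 to 95375080) had 110.1 CPM (102 to 118) in P1 labelled fat, 2.57 (2.12 to 3.09) in fat P2, 84.9 (68.7 to 104) in P1 labelled lung and 13.7 (10.2 to 17.9) in lung P2. Both P1 libraries were above both P2 libraries, by 42.9-fold (35.1 to 52.8) for the libraries labelled fat and 6.22-fold (4.397 to 8.87) for those labelled lung. For lung the log2 ratio with 10 CPM added lay just past the limit, and Mmp15 was no longer past it when 25 CPM were added or all barcodes were used. Mmp16 and Mmp17 stayed under 7 CPM in every library, and Mmp24 and Mmp25 had 5 and 2 UMIs in fat P2 and none elsewhere.

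Of the remaining MMPs, Mmp23, a short family member without the usual hemopexin domain, was mainly a transcript of fat P2. Mmp23 (ENSMUSG00000029061, chromosome 4, 155650655 to 155653384) had 1.23 CPM (0.531 to 2.42) in P1 labelled fat, 204 (199.6 to 208) in fat P2, 8.05 (3.68 to 15.3) in P1 labelled lung and 23.2 (18.7 to 28.5) in lung P2. Fat P2 exceeded lung P2 by 8.79-fold (7.14 to 10.9). Mmp27 had 35.0 (33.3 to 36.8) CPM in fat P2, 5.41 (3.35 to 8.27) in lung P2 and no UMI in either P1 library. With the 0 of P1 labelled fat set at 3 UMIs, fat P2 was 75.95-fold higher. The lower end of the counting interval was 61.7-fold. Mmp19 was at 1.54, 48.4, 8.05 and 55.4 CPM in the order used above, with lung P2 1.15-fold (0.991 to 1.32) over fat P2, an interval that includes equality. The order of these P2 values turned with TMM scaling. Mmp28, epilysin, was low throughout, at 12.1 (9.61 to 15.1) CPM in P1 labelled fat and under 2.7 CPM in each of the others.

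The TIMPs differed in which member led. Timp2 encodes the inhibitor that also takes part in proMMP2 activation. Timp2 (ENSMUSG00000017466, chromosome 11, 118301069 to 118355740) had 472 CPM (455 to 489) in P1 labelled fat, 3067 (3050.3 to 3083) in fat P2, 168 (145 to 194) in P1 labelled lung and 1117 (1084 to 1151) in lung P2. P2 was higher by 6.499-fold (6.27 to 6.74) for the libraries labelled fat and 6.65-fold (5.74 to 7.73) for those labelled lung. With the P1 libraries exchanged these became 18.2-fold and 2.37-fold, and Timp2 was no longer past the limit in lung. Timp3 encodes the matrix-bound inhibitor that also blocks ADAMTS4 and ADAMTS5. Timp3 (ENSMUSG00000020044, chromosome 10, 86300372 to 86349506) had 274 CPM (262 to 287) in P1 labelled fat, 809 (801 to 818) in fat P2, 721 (672 to 773) in P1 labelled lung and 2060.3 (2015 to 2106) in lung P2. Fat P2 was therefore higher than lung P2 in Timp2, by 2.75-fold (2.66 to 2.83), and lower in Timp3, by 2.55-fold (2.48 to 2.61). Neither passed the 4-fold limit.

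As a share of all TIMP UMIs, Timp2 made up 61.8% in P1 labelled fat, 78.6% in fat P2, 13.7% in P1 labelled lung and 34.7% in lung P2. Timp3 made up 35.9%, 20.7%, 58.7% and 64.0% in the same order. Timp2 thus led in fat P2 and Timp3 in lung P2, and which of them led in P1 of a tissue turns with the exchange of the P1 libraries. Timp1, which is induced in many injury settings, reached at most 38.7 (32.7 to 45.4) CPM, in lung P2. Timp1, Timp3 and Timp4 each lie inside a synapsin gene on its opposite strand (Syn1, Syn3 and Syn2 in GENCODE vM21). The strand setting of the counting is not given in the sources used here, and the synapsin genes held at most 435 UMIs in any library.

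**Figure D3:**
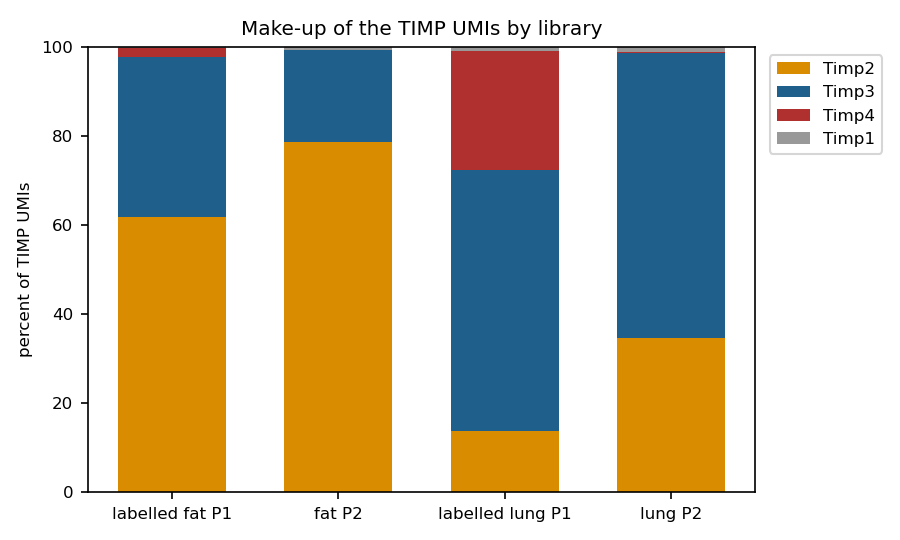
Percent of the TIMP UMIs of each library that came from Timp2, Timp3, Timp4 and Timp1 (stacked bars, 1 library each). Timp2 makes up 78.6% in fat P2 and Timp3 64.0% in lung P2, and Timp4 makes up 26.7% in P1 labelled lung.

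Timp4 encodes a TIMP with a narrower tissue range. Timp4 (ENSMUSG00000030317, chromosome 6, 115241892 to 115252205) had 15.7 CPM (12.8 to 19.02) in P1 labelled fat, 0.642 (0.427 to 0.928) in fat P2, 328 (295 to 363) in P1 labelled lung and 5.15 (3.15 to 7.96) in lung P2. P1 labelled lung alone exceeded 16 CPM, and its lead was 63.6-fold (40.6 to 105) over lung P2 and 20.9-fold (16.8 to 26.3) over P1 labelled fat. Timp4 was seen in 40.95% of its barcodes (28.2% thinned to 1000 UMIs). In P1 labelled fat its 102 UMIs came from 7 of 1948 cells, with up to 33 in a cell. Those 7 cells had a median of 37 Fabp4 UMIs, against 0 in the cells without Timp4. P1 labelled lung, the library with most Timp4, was also the library with most Fabp4 of the P1 pair.

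Among the proteoglycan-cleaving ADAMTS genes, Adamts5 and Adamts1 are neighbours on chromosome 16, 53.1 kb apart. Adamts5 encodes a main aggrecan- and versican-cleaving enzyme. Adamts5 (ENSMUSG00000022894, chromosome 16, 85856173 to 85901828) had 2.304 CPM (1.29 to 3.80) in P1 labelled fat, 901 (892 to 909) in fat P2, 27.7 (18.8 to 39.3) in P1 labelled lung and 84.8 (75.9 to 94.5) in lung P2. Fat P2 was 391-fold (237 to 698) above P1 labelled fat and 10.6-fold (9.53 to 11.9) above lung P2. Adamts1, another versican-cleaving enzyme, varied far less. Adamts1 (ENSMUSG00000022893, chromosome 16, 85793827 to 85803113) had 82.2 CPM (75.4 to 89.4) in P1 labelled fat, 253 (248 to 257) in fat P2, 279.8 (249.7 to 313) in P1 labelled lung and 204 (189.7 to 218) in lung P2. No comparison of Adamts1 passed 4-fold, and exchanging the P1 libraries turned the direction between P1 and P2 in both label pairs. The 14 immediate early genes, which respond fast to handling and other stimuli, summed to 3246 CPM in P1 labelled fat, 25886 in fat P2, 21097 in P1 labelled lung and 6364 in lung P2. The library lowest in Adamts1 was also lowest in these genes, and their part in the Adamts1 level was not tested.

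Adamts8 and Adamts15 are neighbours too, 20.1 kb apart on chromosome 9, and both were highest in lung P2. Adamts15, a versican-cleaving enzyme (ENSMUSG00000033453, chromosome 9, 30899155 to 30922452), had 1.23 CPM (0.531 to 2.42) in P1 labelled fat, 33.9 (32.2 to 35.7) in fat P2, 3.58 (0.974 to 9.16) in P1 labelled lung and 363 (344 to 383) in lung P2. Adamts8 (ENSMUSG00000031994, chromosome 9, 30942562 to 30963838) was at 0.768, 0.344, 0 and 67.3 CPM in the same order. Lung P2 exceeded fat P2 by 10.7-fold (9.94 to 11.5) in Adamts15 and by 196-fold (116 to 354) in Adamts8. Adamts8 had no UMI in P1 labelled lung. With that 0 set at 3 UMIs, lung P2 was 25.1-fold higher, and the lower end of the counting interval was 20.3-fold. Adamts9 was at 43.8 (38.8 to 49.2), 9.24 (8.36 to 10.2), 64.4 (50.4 to 81.1) and 89.9 (80.8 to 99.9) CPM in the same order, which makes it lowest in fat P2. Adamts4, an aggrecan-cleaving enzyme, stayed at or under 21.2 CPM and Adamts20 at or under 1.03 CPM.

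Adamts2 encodes the main protease that removes the amino-terminal propeptide of type I procollagen. Adamts2 (ENSMUSG00000036545, chromosome 11, 50602084 to 50807573) had 1.84 CPM (0.952 to 3.22) in P1 labelled fat, 351 (346 to 357) in fat P2, 8.94 (4.29 to 16.4) in P1 labelled lung and 229 (214 to 245) in lung P2. In both label pairs P2 was far above P1, by 191-fold (109 to 369) in fat and 25.6-fold (13.9 to 53.6) in lung. Its relatives Adamts3 and Adamts14 stayed under 9 CPM. Adamts12, which cuts cartilage oligomeric matrix protein, was at 1.997, 132, 9.83 and 49.5 CPM in the same order, and its relative Adamts7 at or under 13.4 CPM.

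Adamts10 and Adamts17, both linked to fibrillin microfibrils, were higher in lung P2 than elsewhere. Adamts10 (ENSMUSG00000024299, chromosome 17, 33524204 to 33553782) had 82.3 CPM (75.5 to 89.6) in P1 labelled fat, 36.8 (35.1 to 38.7) in fat P2, 63.5 (49.6 to 80.1) in P1 labelled lung and 419 (398 to 439) in lung P2. Lung P2 exceeded fat P2 by 11.4-fold (10.6 to 12.2) and P1 labelled lung by 6.59-fold (5.199 to 8.49). Adamts17 (ENSMUSG00000058145, chromosome 7, 66839735 to 67153171) was at 1.08, 1.12, 0 and 70.1 CPM in the same order, so that lung P2 exceeded fat P2 by 62.4-fold (45.9 to 86.4). Adamts16 showed the reverse, with 1015 UMIs (23.3 CPM) in fat P2 and none in the other 3 libraries. Adamts6, Adamts18 and Adamts19 stayed under 8 CPM. Adamts13, which cuts von Willebrand factor, had 17 UMIs in P1 labelled fat, 2 in fat P2 and none in either library labelled lung.

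Beyond their library sums, members were followed across clusters made without them in 3 libraries, and a cluster was called "X-like" from its markers. In fat P2, 95.5% of cells were fibroblast-like, in lung P2 62.5%, with 5.22% mural-like and 28.6% unnamed, and in P1 labelled fat 84.0% were endothelial-like. All comparisons of clusters are descriptions, and the bounds of some clusters moved with the cluster settings, as given at the end. The B-like cluster 12 of fat P2 (27 cells, median 1879 UMIs), which should lack stromal transcripts, held Mmp2 at 664 (514 to 843) CPM, Timp2 at 1516 (1285 to 1776), Timp3 at 505 (376 to 664), Adamts5 at 297 (201 to 424) and Mmp3 at 238 (152 to 354). The cluster also held fibroblast markers at a sum of 20618 CPM, and the part of free RNA or doublets in these values was not tested. Some other clusters lay below them. The same cluster, led by Cd74, S100a8 and S100a9, held 6 of the 10 Mmp8 UMIs of fat P2, in 1 cell, and Mmp8 encodes the neutrophil collagenase.

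Fat P2 fibroblast-like clusters divided by Mmp3. It was highest in cluster 11 (355 cells, led by Fmo2 and F3) at 1609 (1549 to 1671) CPM and in cluster 2 (464 cells, led by Igfbp2 and Tnc) at 1478 (1427 to 1530.4). Mmp3 followed at 952 (908 to 999) CPM in cluster 1, which is led by Sdc1 and Ednra, and at 899 (872 to 927) in cluster 0, which is led by Nrep and Aoc3. Cluster 5 held 591 (572 to 611). Clusters 3, 4, 7 and 9, of which cluster 9 is led by Dmkn and Krtdap, held 83.4, 59.1, 68.2 and 29.4 CPM of Mmp3, all below the B-like cluster. Of the Mmp3 UMIs of the library, clusters 0, 1, 2, 5 and 11 held 22.4%, 9.195%, 16.98%, 19.6% and 14.6%.

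Of the inhibitors, Timp2 ran the other way across the clusters given next, and Timp3 was lowest in cluster 2 and highest in cluster 9. Timp2 was at 1169.8 (1124 to 1217) CPM in cluster 2, 1380 in cluster 1, 1610.3 in cluster 0 and 1846 in cluster 11. In clusters 3, 4, 7 and 9 it was at 3889.6, 4133, 4139.8 and 4161 CPM. Timp3 was at 101 (88.2 to 116) CPM in cluster 2 and 1135 (1092 to 1179) in cluster 9. In clusters 1 and 2 Timp2, and in clusters 1, 2 and 11 Timp3, thus lay below their levels in the B-like cluster. Timp1 instead was higher with Mmp3, at 90.5, 82.6 and 77.5 CPM in clusters 2, 1 and 11 against 9.04 to 9.93 in clusters 3, 4, 7 and 9. The immediate early genes summed to 38046, 43788, 40967, 28420 and 26768 CPM in clusters 0, 1, 2, 5 and 11. In clusters 3, 4, 7 and 9 these genes summed to 22790, 8336, 20322 and 16910 CPM. Clusters 10 and 15 had 32816 and 35017 CPM of them with Mmp3 at 245 and 162. The part of these genes in the Mmp3 level was not tested.

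Several ADAMTS genes and the collagenase Mmp14 were highest among the named clusters in cluster 1 of fat P2. There Adamts12 was at 429.9 (400.0 to 461) CPM, Adamts4 at 114 (98.8 to 131), Mmp14 at 1029 (983 to 1078) and Mmp19 at 147 (130.1 to 166). In cluster 9 the same genes were at 44.99, 3.46, 317 and 23.4 CPM. Mmp23 was at 81.6 CPM in cluster 2, 299 in cluster 3 and 307 in cluster 16. Adamts16 had no UMI in cluster 11 and was at 49.9 (43.1 to 57.5) CPM in cluster 3 and 51.05 (42.3 to 61.1) in cluster 9. The B-like cluster held Adamts16 at 49.5 (16.1 to 116) CPM from 5 UMIs in 2 cells. Among the fibroblast-like clusters Adamts5 ranged from 309 CPM in cluster 11 to 1292 in cluster 3. Mmp15, nearly absent from fibroblast-like clusters, was at 90.5 (64.02 to 124) CPM in cluster 13 and 91.8 (64.9 to 126) in cluster 21. Both are unnamed, with the epithelial gene Epcam among their leading genes, and each held 33.9% of the Mmp15 UMIs.

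**Figure D4:**
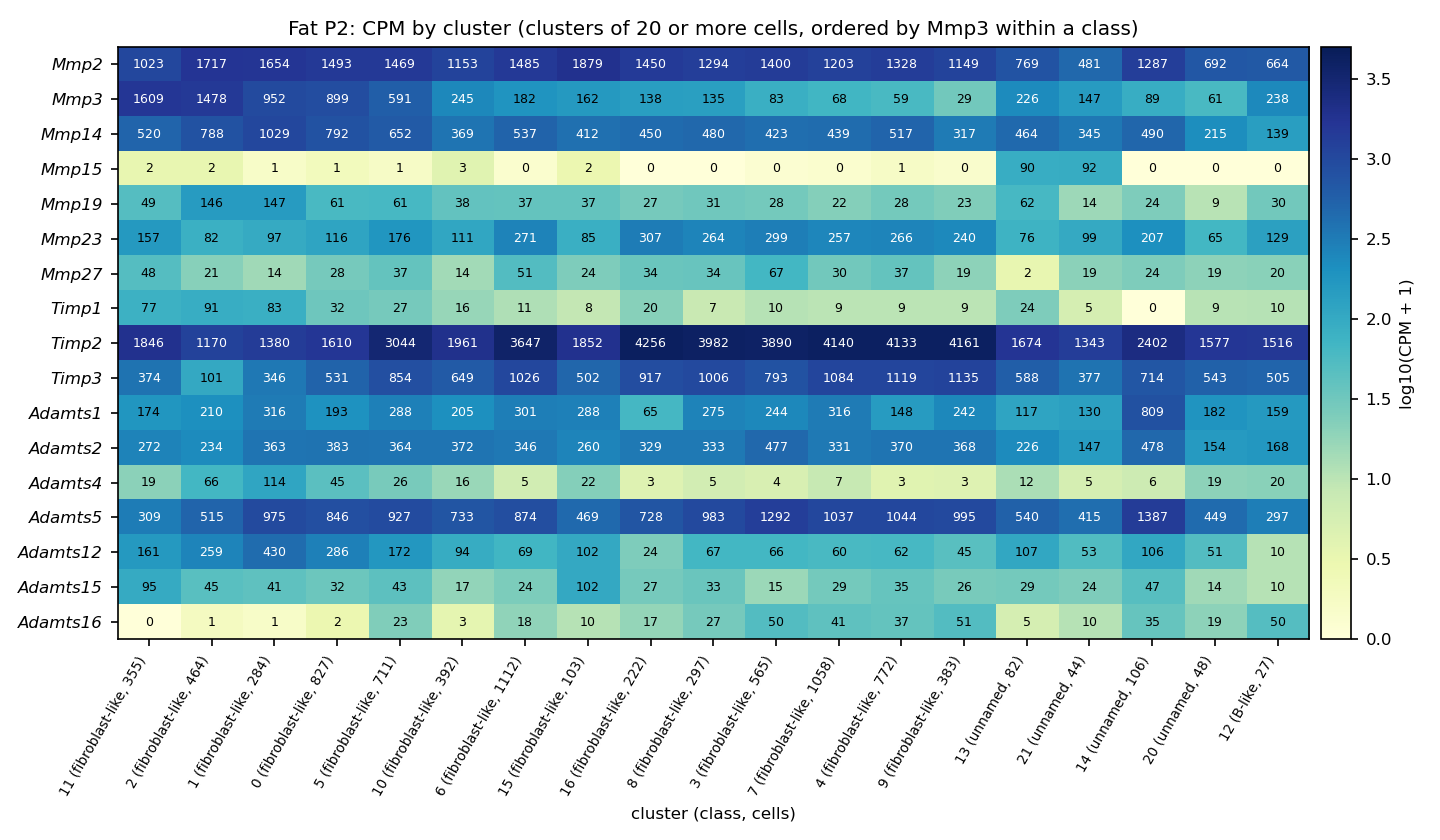
CPM of members (rows, printed in the squares, colour on a log scale) in the clusters of fat P2 with 20 or more cells (columns, with class and number of cells), ordered by Mmp3 within a class. Mmp3, Timp1, Adamts4 and Adamts12 are higher at the Mmp3-rich end of the fibroblast-like clusters, and Timp2, Timp3 and Adamts16 at the other.

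Lung P2 clusters also differed in their gelatinase and stromelysin levels. Clusters 5 and 7 were high in both Mmp2 and Mmp3, whereas cluster 9 was high in Mmp2 only. Mmp2 was highest in cluster 9 (90 cells, led by Adh7 and Hmcn2) at 2126 (1969 to 2293) CPM, followed by clusters 5 and 7 at 834 (764 to 908) and 832 (733 to 942). Mmp3 was highest in cluster 7 (75 cells, led by Scara5, Dcn and Ccl11) at 763 (668 to 868) CPM and in cluster 5 (180 cells, led by Mt2 and Mt1) at 583 (525 to 646). In cluster 9 Mmp3 was at 9.48 (1.95 to 27.7) CPM. Cluster 9 was thus the highest in Mmp2 and among the lowest in Mmp3. In the endothelial-like cluster 11 (26 cells, median 4435.5 UMIs), which should lack both, Mmp2 was at 61.1 (32.5 to 104) CPM and Mmp3 at 0. Cluster 2 (83 cells, unnamed, led by Ccl2 and Kcna1) held Mmp3 at 551 (432 to 693) CPM. Clusters 5 and 7 held 44.8% and 28.3% of the Mmp3 UMIs of the library.

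Among the inhibitors in lung P2, Timp3 was highest in cluster 9 and Timp1 and Timp2 in cluster 7. Timp3 was at 3769 (3558 to 3989.5) CPM in cluster 9, 3334 (3054 to 3632) in the mural-like cluster 4 and 3316 (3174 to 3461) in cluster 5. In cluster 0 it was at 1191 (1111 to 1274) and in the endothelial-like cluster 11 at 535 (442 to 643). Timp1 was highest in cluster 7, at 231 (180.3 to 292) CPM, which held 46.7% of its UMIs, against 1.42 in cluster 0. Timp2 was highest in cluster 7 as well, at 2015 (1858 to 2182) CPM. Timp4 was at 89.4 CPM in the mural-like cluster 4, which held 14 of its 20 UMIs in 4 cells. Mmp23 was at 145 (106 to 195) CPM in cluster 7 and 76.6 (39.6 to 134) in cluster 4, against 1.42 in cluster 0.

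The ADAMTS genes that were higher in lung P2 than in fat P2 were each lower in cluster 7, the cluster highest in Mmp3, than in cluster 0. Adamts15 was at 511 (459 to 566) CPM in cluster 0, 649 (580.2 to 724) in cluster 1 and 525 (444 to 616) in cluster 3, against 122 (86.1 to 168) in cluster 7 and 28.2 (10.3 to 61.3) in the endothelial-like cluster 11. Adamts9 was at 158, 162 and 141 CPM in clusters 0, 1 and 8 and at 3.304 in cluster 7. Adamts8 was highest in cluster 8 at 130.2 (98.9 to 168) CPM, and cluster 7 held 6.61. Adamts17 was at 104 CPM in cluster 0, highest at 128 in cluster 2, which also held Mmp3, and had no UMI in cluster 7. Adamts10 was broader, at 149 (108 to 199) CPM in cluster 7 and 730.3 (657 to 809.6) in cluster 1, with 588 in the mural-like cluster 4. Cluster 0 has the lung fibroblast gene Tcf21 among its leading genes, and cluster 1 is unnamed with a median of 1396 UMIs. Cluster 7 was above cluster 0 in Mmp3, Timp1 and Mmp23. Adamts2 was higher in clusters 9 and 7, at 594 (512 to 685) CPM and 552 (471 to 642), than in cluster 0 at 86.8 (66.4 to 111).

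Adamts1 was highest in cluster 10 of lung P2 (20 cells, led by Hhip), at 1130.3 (879 to 1430.5) CPM, against 189 in the other cells. In the same cluster the immediate early genes summed to 32074 CPM, against 1638 to 9009.8 CPM in the others. In fat P2 the lowest Adamts1 of any cluster, 64.8 (45.8 to 88.9) CPM in cluster 16, came with the lowest sum of these genes, 3048 CPM. Its highest, 809 (679 to 956) CPM in the unnamed cluster 14, came with 30860 CPM, below the sums of clusters 0, 1 and 2 given above. Cluster 14 (106 cells, led by mt-Nd6) had a median of 1482 UMIs, against 5151.5 over the library. The highest sum of the immediate early genes in fat P2, 55376 CPM, was in cluster 20. The part of these genes in the Adamts1 differences was not tested. Mmp15 in lung P2 came mostly from the epithelial-like cluster 6, 20 cells at 210.2 (135 to 313) CPM, and the endothelial-like cluster 11, at 89.2 (53.7 to 139) CPM. These held 45.3% and 35.8% of its UMIs.

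**Figure D5:**
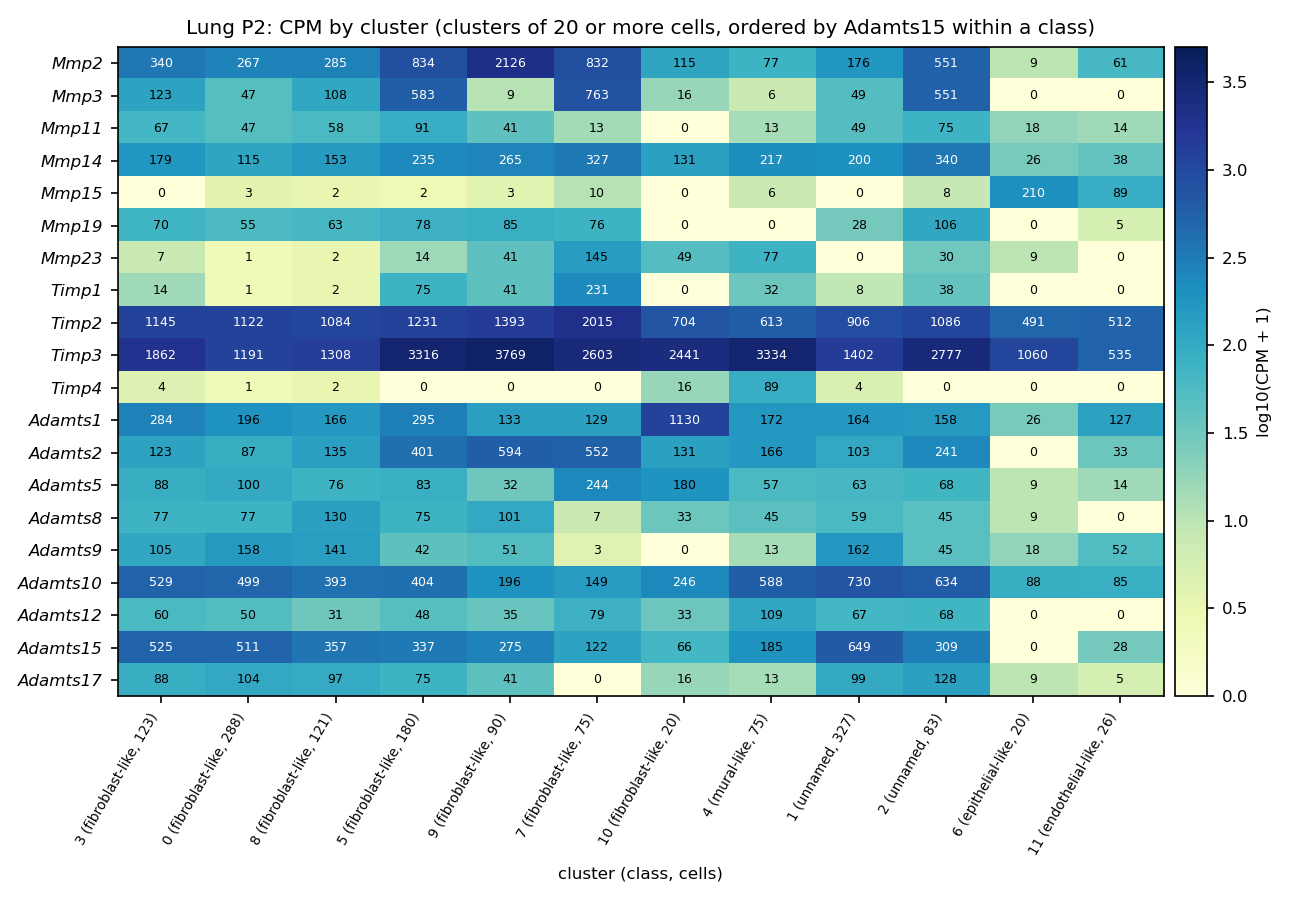
CPM of members (rows, printed in the squares, colour on a log scale) in the clusters of lung P2 with 20 or more cells (columns, with class and number of cells), ordered by Adamts15 within a class. Mmp2 is highest in cluster 9, Mmp3 in clusters 7, 5 and 2, and Adamts15 in clusters 1, 3 and 0.

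In P1 labelled fat, Timp2 and Timp3 divided the endothelial-like cells. Cluster 4 (422 cells, led by Fibin and Ednrb) held Timp2 at 934 (888 to 982) CPM, against 233 to 316 in endothelial-like clusters 0, 1, 2, 3, 6, 7 and 8 and 651 (551 to 764) in cluster 9. It also held 49.4% of the Timp2 UMIs of the library. Timp3 was at 435 (403 to 468) CPM there and at 76.6 to 119.6 in clusters 0, 1, 2, 3 and 6. Adamts1 was lowest in cluster 4 at 9.85 (5.63 to 16) CPM, whereas cluster 6 held 237 (191 to 289). The immediate early genes summed to 3341 and 3432 CPM in these clusters. Cluster 7 (41 cells, led by Slc6a2, with Vwf) held Timp3 at 506 (412 to 615) CPM and 12 of the 21 Mmp16 UMIs.

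Mmp15 was found across the endothelial-like clusters of this library, from 21.5 (4.44 to 62.9) CPM in cluster 8 to 170.0 (139.9 to 205) in cluster 0. Adamts9 was at 107 (83.6 to 135) CPM in cluster 0 and 16.01 (10.5 to 23.5) in cluster 4. Cluster 10 (39 cells, epithelial-like, led by Ager) held Timp3 at 1729.6 (1576 to 1894) CPM and 26.1% of the Timp3 UMIs of the library. The cluster also held fibroblast markers at a sum of 1295 CPM, against 0 to 14.4 in the other clusters. Inmt and Npnt, from the lung alveolar fibroblast markers, were among its leading genes. The part of stromal cells or their RNA in its Timp3 level was not tested. Cluster 11 holds 10 cells, is unnamed and is led by Fabp4 and Fabp5. It held Timp4 at 1979 (1588 to 2439) CPM in 4 cells, which was 86.3% of the Timp4 UMIs, and Timp3 at 1462 (1128 to 1864). These cells did not form a cluster of their own under other settings. Their best match held 401 cells at Leiden resolution 0.5, 123 with 20 principal components and 251 with the members kept in. Adamts13 came from cluster 4 for 13 of its 17 UMIs.

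P2 cells with Mmp2 often had Timp2, and those with Adamts5 often had Timp3, but about as often as the inhibitor was seen at all. Timp1 was rare in both P2 libraries, and its share was higher in cells with Mmp3. At 1000 UMIs per cell, 89.7% of fat P2 cells with Mmp2 also had Timp2, against 88.3% of all fat P2 cells. In lung P2 the shares were 65.8% and 62.7%. Of fat P2 cells with Adamts5, 52.9% had Timp3, against 48.9% of all cells. Timp1 was seen in 4.41% of the Mmp3 cells of fat P2, against 2.23% of all cells, and in 5.94% against 1.88% in lung P2, from 60 and 6 cells with both. Cells of a library are not replicates, and these shares have no test.

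Other genes of the same matrix pathways gave the setting. Of all measured genes, 8.34% were at least 4-fold higher in P2 and 9.76% in P1 for the libraries labelled fat. For those labelled lung the shares were 9.06% and 6.41%. Between the P2 libraries 3.65% were at least 4-fold higher in fat and 6.37% in lung, so that few of any 8 genes would pass. Of the 8 interstitial collagen genes, all 8 were at least 4-fold higher in P2 in both label pairs, and none differed by 4-fold between fat P2 and lung P2. Col1a1, a substrate of collagenases whose procollagen ADAMTS2 trims, was at 9.83, 5600.3, 156 and 2400 CPM in the order used above. Genes of procollagen processing and crosslinking were at least 4-fold higher in P2 for 6 of 6 measured in the libraries labelled fat and for 5 of 6 in those labelled lung. Loxl1, a lysyl oxidase-like crosslinking enzyme, was at 3.23, 754, 17.9 and 740.5 CPM. Of the other inhibitors and clearance receptors, 5 of 6 measured were at least 4-fold higher in P2 for fat and 3 of 6 for lung. Reck, a membrane-bound MMP inhibitor, was at 6.298, 102, 7.15 and 114 CPM.

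The shares of all measured genes given above stand beside each count that follows. Of 6 measured genes of the plasminogen system, which activates several proMMPs, 3 were at least 4-fold higher in P2 of the libraries labelled fat, against 8.34% of all measured genes. A further 1 was higher in P1, against 9.76%. Plat, the tissue plasminogen activator, was at 36.9, 557, 63.5 and 93.04 CPM. Plau, the urokinase, was at 7.07, 85.1, 4.47 and 0.773 CPM, and its receptor Plaur at 90.9, 8.35, 28.6 and 4.38 CPM. Of 4 measured proprotein convertases, which cut the propeptides of MT-MMPs and ADAMTS enzymes, 1 was at least 4-fold higher in fat P2 than in P1 labelled fat, Pcsk6 at 1.23, 286, 37.5 and 14.2 CPM. Basement membrane genes were at least 4-fold higher in P2 for 6 of 9 measured in the libraries labelled fat and for 1 of 9 in those labelled lung, where 1 was higher in P1. Versican, decorin and biglycan, proteoglycans that were the 3 measured of their list, were at least 4-fold higher in P2 in both label pairs, with Vcan, a substrate of several ADAMTS enzymes, at 2.304, 173, 4.47 and 56.4 CPM. Of the ADAMTS-like genes, which encode relatives without a protease domain, 2 of 3 measured were higher in P2 for fat and 2 of 2 for lung. Between the P2 libraries Adamtsl1 was at least 4-fold higher in fat, at 1.08, 194, 0.894 and 23.5 CPM, and Adamtsl2 in lung, at 3.38, 2.94, 2.68 and 302 CPM. Of 5 measured cathepsins, 3 were higher in P2 for fat and none for lung, with Ctsk at 0.614, 349, 14.3 and 30.9 CPM. Of the ADAM proteases, membrane-bound relatives, 2 of 7 measured were higher in fat P2 than in P1 labelled fat, and Adam15 alone of 4 was higher in P1 labelled lung than in lung P2.

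Fibroblast transcripts in P1 labelled lung stood beside its low levels of P2 members. That library held 9 of 12 fibroblast markers at 30 CPM or more and all 12 above 0, with a sum of 1141 CPM, against 61.4 CPM and 0 of 12 at 30 CPM in P1 labelled fat. Mmp2, Mmp3, Mmp19, Mmp23, Adamts2, Adamts5 and Adamts12 were also higher there than in P1 labelled fat, whereas Mmp14 and Timp2 were lower, at 22.3 against 51.0 CPM and 168 against 472 CPM. The part of those transcripts in these levels was not tested. At 2000 UMIs or more per barcode and at most 5% mitochondrial UMIs the direction turned for Mmp2, Mmp3 and Mmp19. That turn rests on few counts. P1 labelled lung held 26, 19 and 9 UMIs of these genes in all 652 kept barcodes, of which 164 had 2000 UMIs or more.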

How the data were processed

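The files hold UMI counts per gene and cell barcode as deposited by the authors, from 10x 3' version 3.1 libraries. Per the submitters' processing notes they used Cell Ranger 3.1.0 and mm10, and the annotation release, strand setting and any barcode filter are not given in the sources used here. Each of the 4 libraries is 1 group, so no model was fitted across samples. A barcode was kept when it had 1000 UMIs or more, 500 genes or more and no more than 10% mitochondrial UMIs, and no doublets were removed: Scrublet's own threshold marked 1 of 7898 barcodes in fat P2 and so did not work there, and removal of the highest scores at a set rate was an alternative. The deposited barcodes numbered 3783 (P1 labelled fat), 9025 (fat P2), 1305 (P1 labelled lung) and 2860 (lung P2). Of these 1948, 7898, 652 and 1436 were kept. Barcodes over the mitochondrial limit numbered 1645, 672, 16 and 847 in that order, so the libraries lost unequal parts. Counts were summed per library and scaled to CPM. Shares of cells used each cell thinned to 1000 UMIs. Clusters used 2000 variable genes without the members, 30 principal components, 15 neighbours and Leiden resolution 1 (scanpy 1.11.5, Python 3.11.15). Clusters were named from fixed markers by a rule set after the data were seen: at least 3 markers of a class at 100 CPM or more, the class with the highest share of its markers, and no other class with more markers among the 10 leading genes. A cluster also stayed unnamed when its median UMIs were below the library median divided by 3 and its leading genes held no marker of its class. TMM factors came from edgeR 4.0.16 in R 4.3.3, as an alternative scaling only. The ratio step was tested on simulated counts. Members with 50 CPM or more in a library were named with all 4 values, and of each other list at most 4 genes past the limit per comparison. The members, lists and rules were chosen with earlier results of these data known.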

Additional observations from a re-analysis of the deposited data

Results flagged for a closer look

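Adamts10 moved in opposite directions between P1 and P2 in the libraries of the 2 tissue labels, with log2 ratios of P1 over P2 (10 CPM added) of 0.9792 for fat and -2.544 for lung. The signs were the same with the P1 libraries exchanged. Adamts5 was higher in fat than in lung in P2, with a log2 ratio of 3.264, and lower in the library labelled fat in P1, at -1.616. Mmp23 gave 2.687 in P2 and -0.6844 in P1. In P1 neither gene reached 30 CPM in either library, so neither was measured there. Adamts5 had 15 UMIs in P1 labelled fat and 31 in P1 labelled lung, and Mmp23 had 8 and 9. The sign of both in P1 turns by construction when the P1 libraries are exchanged. With 1 library per group the differences between these ratios were not tested.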

How the results depend on the processing

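No paired analysis was possible because each group has 1 library, and no replicate could be left out. Over the alternatives, other values moved more often than counts of members. Of the ratios 212 moved and 529 stayed, and of the cluster values 333 moved and 1191 stayed. Of the shares of cells 116 moved and 36 stayed. Of the counts of members past 4-fold, 70 stayed within 1.5 times the value reported and 8 did not. For the libraries labelled fat, members higher in P1 numbered 2 with 1 CPM added (Adamts9 joined) and 2 with the P1 libraries exchanged (Timp4 joined). For those labelled lung they numbered 1 with 25 CPM added, 1 with all barcodes and 1 with the P1 libraries exchanged. Members higher in lung P2 than in fat P2 numbered 2 with 25 CPM added (Adamts10 and Adamts15). Between the P1 libraries, members higher in P1 labelled lung numbered 2 with all barcodes (Adamts5 joined), and members higher in P1 labelled fat 1 with stricter barcodes (Mmp14). TMM scaling moved the median log2 ratio of all measured genes from 0.37 to 0.05 for fat and from -0.19 to 0.12 between the P2 libraries. Where the alternative's own construction does not show it, the cause was not tested. Depth limits P1 labelled lung most, where a count of 0 allows 2.68 CPM. Cluster bounds also depended on the settings. At Leiden resolution 0.5, fat P2 clusters 1 and 2 each matched best a cluster of 735 cells. There the Jaccard overlap with the best match was 0.302 for lung P2 cluster 0 and 0.389 for fat P2 cluster 9. It was 0.961 for lung P2 cluster 7 and 0.908 for fat P2 cluster 11, where 1 means the same cells.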
